A study of Homo sapiens with 8 samples.

Results

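A set of 40 genes for collagen chains, mesenchymal matrix proteins and contractile proteins was followed in human microglia, the resident macrophages of the brain, after culture with other cells or alone. The genes were chosen by name, with earlier results of these data known. Each matched 1 Ensembl entry, and they are 40 of the 78899 rows of the count table. The microglia were derived from H1, an established embryonic stem cell line, although the labels also call them iPSC-derived. They carried a GFP label and were sorted by fluorescence 2 weeks after plating. The tri-culture group (4 libraries) was kept with other cells, which the labels do not name, and received no added cytokine. The mono-culture group (4 libraries) was kept alone with IL-34 at 100 ng/mL and M-CSF at 10 ng/mL, ligands of the CSF1 receptor. The partner cells and the lack of the supplement therefore changed together and cannot be told apart. Both groups come from the same 1 line and hold 1 library of each of 4 batches, and libraries are numbered here by batch.

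Collagens are trimers of chains that come from separate genes. The fibrillar types I, III, V and XI form the fibrils of connective tissue and are made mainly by fibroblasts and related stromal cells. Basement membranes are thin sheets in which a type IV collagen network and laminins, each a trimer of an alpha, a beta and a gamma chain, are joined by nidogen and perlecan. In the brain these sheets surround blood vessels and are made by endothelium, pericytes and astrocytes, while fibrillar collagen lies mostly in the meninges and around larger vessels. Contractile proteins such as smooth muscle actin and transgelin mark smooth muscle, pericytes and myofibroblasts.

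Tri-culture libraries held 17602010 to 24491765 counts and mono-culture libraries 17037481 to 33363972. In tri-culture, 13.9% of the 16249 genes tested were higher and 13.0% lower, together 26.9%, by edgeR's quasi-likelihood test at a threshold of 0.05 on the Benjamini-Hochberg adjusted p. The higher genes made up 51.7% of these calls, and 63.0% where libraries were scaled by their totals alone. Levels are given as CPM, counts per 1e6 counts of a library, whose total was first scaled by its TMM factor. Of 13 microglia and macrophage markers, all were tested, 5 were higher, 1 lower, and PTPRC stood at 630 ± 62.3 CPM in tri-culture and 619 ± 46.8 CPM in mono-culture (SD, n = 4 each, edgeR, adjusted p = 0.909).

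The tri-culture libraries differed among themselves in these genes, and library 2 stood apart. Library 2 held the lowest of the 4 tri-culture levels for 31 of the 40 genes, library 3 the highest for 25 and library 1 the highest for 13. How often each library is lowest or highest over all genes was not computed, so these counts do not set the 40 apart. Summed over the 40 genes, the level was 637, 162, 693 and 339 CPM in tri-culture libraries 1 to 4, against 327, 326, 297 and 318 CPM in mono-culture libraries 1 to 4. The sum in tri-culture library 2 lay below every mono-culture library, and the other tri-culture sums lay above them. In bulk RNA, fewer cells of a type and less RNA per cell cannot be told apart.

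The 40 genes did not move as one group. In tri-culture 12 were higher and 6 lower, and 7 were tested and not called. The other 15 were not tested, because too few libraries reached the count cutoff. Among these, COL1A1, COL5A1, DCN, LUM and POSTN had at least 100 counts in each tri-culture library except library 2. Over all tested genes the shares were 13.9% higher and 13.0% lower. COL9A3, COL11A1, LAMA4 and THY1 passed the filter on low counts through the tri-culture libraries alone, so the filter itself picked them for a difference. The 12 were COL5A2, COL11A1, COL6A3, COL8A2, COL9A3, COL15A1, COL18A1, LAMA4, LAMB1, FN1, THY1 and TAGLN, and the 6 were COL4A1, COL4A2, COL6A1, COL6A2, LAMC1 and NID1. The genes not called were COL1A2, COL3A1, FBN1, TNC, ACTA2, MYL9 and CALD1. The groups did not overlap for 17 of the 40, against 29.4% of all tested genes, but the 17 include FBLN1, THBS1 and PDGFRB, which were not tested. The mean was higher in tri-culture for 34 of the 40, and the share over all genes was not computed. Over all 40 the median log2 ratio of the group means, with a group never set below 3 counts, was 2.34, against 0.02 over all tested genes. The first value includes the 15 untested genes and the second holds tested genes only, so the sets are not alike. As the 40 were chosen with earlier results of these data known, these values describe the list and are no test of it.

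**Figure D1:**
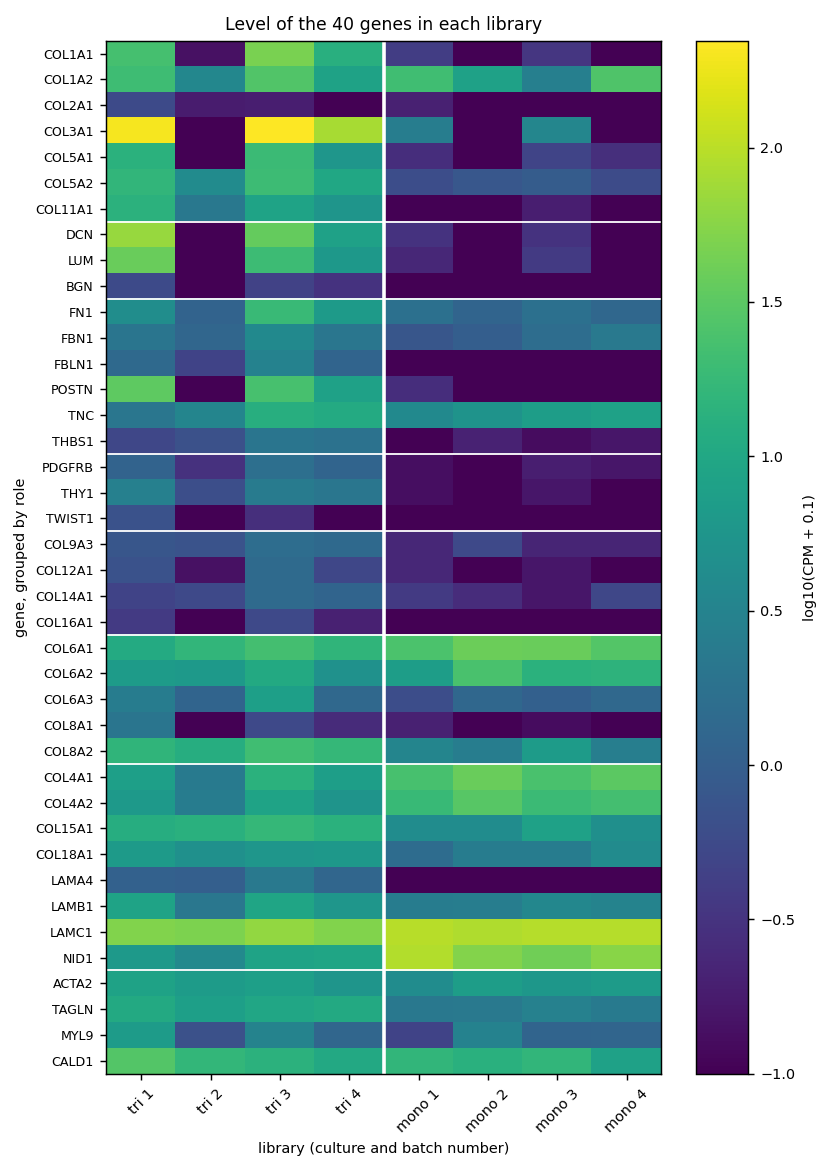
Level of each of the 40 genes (rows, grouped by role) in each library (columns, tri-culture left, mono-culture right), as log10 of CPM plus 0.1. Tri-culture library 2 is dark for COL3A1, COL5A1, DCN, LUM and POSTN, which are bright in tri-culture libraries 1 and 3, while COL4A1, COL4A2, LAMC1 and NID1 are brighter in mono-culture.

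The fibrillar collagens were led by COL3A1, the only chain of type III collagen (chromosome 2, 188974320 to 189012746, GRCh38). COL3A1 stood at 203, 0, 222 and 81.4 CPM in tri-culture libraries 1 to 4, against 2.53, 0, 3.33 and 0 CPM in mono-culture libraries 1 to 4. It had no count in library 2, so the groups overlap. On the deposited length-scaled values, which allow levels of different genes to be compared, COL3A1 led the 40 genes in tri-culture libraries 1, 3 and 4, at 107.9, 119.8 and 43.2 units. The fitted log2 fold change was 6.21 ± 1.85 SE and missed the threshold (edgeR, adjusted p = 0.0505). Without tri-culture library 2, the only tri-culture library with no count of the gene, the log2 fold change was 6.61 ± 0.76 SE (edgeR, adjusted p = 0.000144). A fit that holds the batch as a block gave 6.52 (edgeR, adjusted p = 2.63e-05). As library 2 of both groups had no count, batch 2 carries no information on the difference in that fit. When any 1 of the 7 libraries other than tri-culture library 2 was left out, the gene again missed the threshold (edgeR, adjusted p 0.0887 to 0.113).

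COL1A1, the alpha-1 chain of type I collagen, had the same shape, with 22.8, 0.0407, 46.5 and 12.6 CPM in tri-culture and 0.308, 0, 0.238 and 0 CPM in mono-culture. COL5A1, a chain of the type V collagen that sits inside type I fibrils, had 13.6, 0, 18.8 and 5.64 CPM in tri-culture and 0.171, 0, 0.387 and 0.18 CPM in mono-culture. Neither gene was tested, because tri-culture library 2 had 1 and 0 counts of them. Without that library COL1A1 was higher at a log2 fold change of 7.29 ± 0.63 SE (edgeR, adjusted p = 1.46e-05), and COL5A1 at 5.90 ± 0.55 SE (edgeR, adjusted p = 1.34e-05). With their lowest library left out, both met the filter through tri-culture alone, so these tests are no independent evidence of a difference. With all 8 libraries and no filter on low counts neither was called (edgeR, adjusted p = 0.0685 for COL1A1 and 0.0991 for COL5A1).

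COL5A2 and COL11A1 kept a level in library 2 and were called with it. COL5A2, a second type V chain (chromosome 2, 189031896 to 189225312), had 15.9, 3.99, 19.5 and 9.79 CPM in tri-culture, against 0.513, 0.72, 0.833 and 0.479 CPM in mono-culture. The lowest tri-culture library lay above every mono-culture library, and the difference was 18.9-fold (log2 fold change 4.24 ± 0.46 SE, edgeR, adjusted p = 1.82e-05). COL11A1, a type XI chain of cartilage and other fibrils, had 14.2, 2.117, 8.73 and 5.49 CPM in tri-culture, against 0, 0, 0.0893 and 0 CPM in mono-culture. Relative to library totals its count was 245 times higher in tri-culture (95% exact interval 83.4 to 1190.4, counting error only; 3 counts in mono-culture; edgeR, adjusted p = 1.53e-05). COL2A1, the type II chain of cartilage, had 14 counts over the tri-culture libraries and 3 over the mono-culture libraries and was not tested.

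COL1A2, the alpha-2 chain that joins COL1A1 in type I collagen, did not follow COL1A1. It had 20.4, 3.46, 26.9 and 8.44 CPM in tri-culture, against 20.8, 8.20, 2.65 and 26.3 CPM in mono-culture, and the groups overlap (log2 fold change 0.04 ± 0.63 SE, edgeR, adjusted p = 0.974). Its sign turned with the batch as a block and when any 1 of 4 libraries was left out. On the length-scaled values the ratio of COL1A1 to COL1A2 was 1.35, 0.0138, 2.09 and 1.81 in tri-culture libraries 1 to 4, against 0.0178, 0, 0.109 and 0 in mono-culture libraries 1 to 4. COL1A2 was thus present in mono-culture, at 0.875 to 8.72 length-scaled units, where COL1A1 stood at 0 to 0.124 units.

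**Figure D2:**
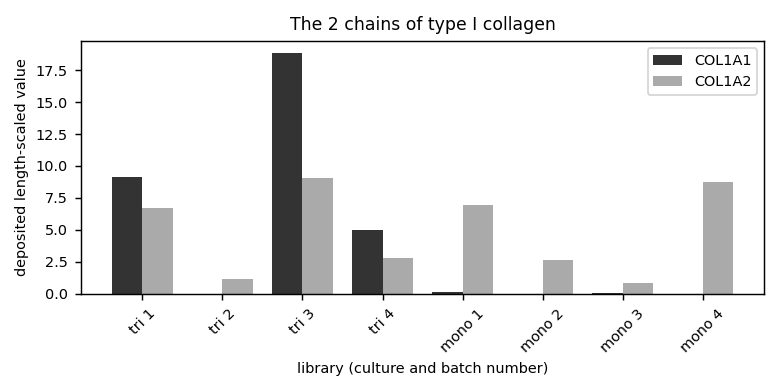
Deposited length-scaled values of the type I collagen chains COL1A1 (dark bars) and COL1A2 (light bars) in each library, tri-culture left and mono-culture right. COL1A1 exceeds COL1A2 in tri-culture libraries 1, 3 and 4, and COL1A2 stands nearly alone in tri-culture library 2 and in every mono-culture library.

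The small leucine-rich proteoglycans that coat collagen fibrils shared the pattern of COL1A1. DCN, decorin (chromosome 12, 91140484 to 91183123), had 68.3, 0, 35.9 and 8.18 CPM in tri-culture, against 0.205, 0, 0.208 and 0 CPM in mono-culture. LUM, lumican, which lies beside it (91102629 to 91111831), had 37.7, 0, 19.8 and 5.95 CPM in tri-culture, against 0.137, 0, 0.268 and 0 CPM in mono-culture. Both genes were at 0 in library 2 of both groups. Without tri-culture library 2 the log2 fold change was 8.11 ± 0.85 SE for DCN (edgeR, adjusted p = 8.15e-05) and 7.30 ± 0.77 SE for LUM (edgeR, adjusted p = 6.64e-05). Here too the lowest library was left out and the filter was met through tri-culture alone, so the tests are no independent evidence. With all 8 libraries and no filter neither was called (edgeR, adjusted p = 0.0777 for DCN and 0.0851 for LUM). BGN, biglycan, had 22 counts in tri-culture, 0 of them in library 2, and no count in mono-culture. Set against 3 counts in the whole mono-culture group, the smallest total counted as detected here, it was at least 8.35-fold higher.

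POSTN, periostin, a matricellular protein of fibroblasts (chromosome 13, 37562583 to 37598844), had 32.3, 0, 23.6 and 8.23 CPM in tri-culture, against 0.171, 0, 0 and 0 CPM in mono-culture. Without tri-culture library 2 it was higher at a log2 fold change of 8.57 ± 0.72 SE (edgeR, adjusted p = 1.11e-05), and with all 8 libraries and no filter it was not called (8.14, edgeR, adjusted p = 0.0638). The first of these tests left out the lowest library and met the filter through tri-culture alone, so it is no independent evidence. COL3A1, COL1A1, COL5A1, DCN, LUM and POSTN each had at most 1 count in tri-culture library 2 and at least 100 in each of the other 3 tri-culture libraries. Of all genes in the table these 6 were the only ones to do so, and no gene did so for libraries 1, 3 or 4. With the minimum lowered to 50 counts NPNT, nephronectin, joined them. With it lowered to 20 counts the keratin gene KRT19, BNC1 and COL21A1 were added, and 3 genes, none of the 40, then met the rule for library 1.

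Promoter sequence was available for POSTN and COL5A1 of these 6 genes and is shown because both genes were at 0 in tri-culture library 2 and high in the other 3 (RefSeq, GRCh38.p14, the 150 bases before the start on the gene's own strand). The genes shown were chosen after their values were seen. Capitals mark the CCAAT box, the GC box core GGGCGG and the TATA box core TATAAA, searched on both strands.
POSTN (chr13:37598769-37598918, minus strand): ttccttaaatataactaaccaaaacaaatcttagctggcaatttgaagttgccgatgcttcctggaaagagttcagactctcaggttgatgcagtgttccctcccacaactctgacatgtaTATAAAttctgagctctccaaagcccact
COL5A1 (chr9:134641653-134641802, plus strand): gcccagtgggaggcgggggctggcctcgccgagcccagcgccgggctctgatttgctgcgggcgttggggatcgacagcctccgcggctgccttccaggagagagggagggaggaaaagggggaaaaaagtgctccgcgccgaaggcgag
The POSTN stretch held 1 TATAAA and the COL5A1 stretch none of the motifs. Of 35116 RefSeq promoters, 6.71% held TATAAA in a stretch of this length, 23.5% held CCAAT and 36.8% held GGGCGG.

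Fibroblast markers outside the 40 genes were at or near 0 or were not called. The list of 15 fibroblast markers, 9 of them among the 40 genes, summed to 389, 5.21, 381 and 128 CPM in tri-culture libraries 1 to 4, against 8.07 to 27.1 CPM in mono-culture. Outside the 40 genes, TCF21 had no count in any library, DPT none in tri-culture, and PRRX1 and MFAP5 3 and 2 counts over the tri-culture libraries. PDGFRA, a receptor of fibroblasts and oligodendrocyte precursors, stood at 0.377 ± 0.154 CPM in tri-culture and 0.796 ± 0.266 CPM in mono-culture (SD, n = 4 each, edgeR, adjusted p = 0.0962). PI16 had 19 counts in tri-culture, 5 of them in library 2, and 0 in mono-culture.

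Most astrocyte markers tested were higher in tri-culture, and GFAP and AQP4 were so in all 4 tri-culture libraries, library 2 included. Of 17 markers 16 were tested, 12 higher and 1 lower, against 13.9% and 13.0% of all tested genes. Of the 12, 6 met the filter on low counts through tri-culture alone, so their tests are no independent evidence of a difference. CLU, also higher, reached the count cutoff in 2 mono-culture libraries, fewer than the 4 that the filter needs. The same limit applies to it. GLUL, SLC1A2 and SLC1A3 were not called, and ALDOC was lower. The list summed to 1478, 1497, 1438 and 1295 CPM in tri-culture libraries 1 to 4, against 761 to 999 CPM in mono-culture. The mono-culture sum was carried by genes other than GFAP and AQP4, so the sum is not a measure of astrocyte RNA alone. GFAP, the astrocyte filament, had 63.1, 150.3, 253 and 201 CPM in tri-culture, against 0.41, 0.443, 0.149 and 0.18 CPM in mono-culture. AQP4, the astrocyte water channel, had 11.3, 19.1, 35.9 and 26.1 CPM in tri-culture and no count in mono-culture. GFAP and AQP4 were lowest in tri-culture library 1, where DCN, LUM and POSTN were highest. They were highest in tri-culture library 3, as were COL3A1, COL1A1 and COL5A1. The part of other cell types in these differences was not tested.

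**Figure D3:**
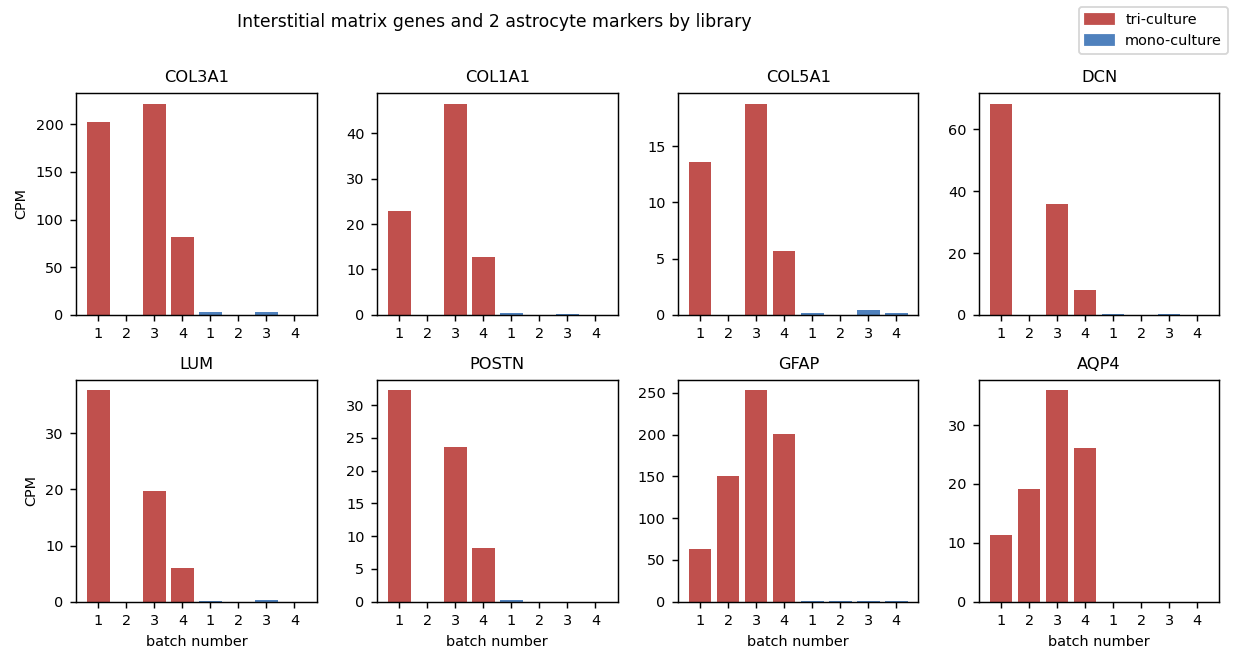
CPM by batch number for COL3A1, COL1A1, COL5A1, DCN, LUM and POSTN and for the astrocyte markers GFAP and AQP4, tri-culture (red) left of mono-culture (blue) in each panel; each bar is 1 library. The 6 matrix genes are at or near 0 in tri-culture library 2, where GFAP stands at 150.3 CPM and AQP4 at 19.1 CPM.

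Small amounts of these 6 genes were present in mono-culture library 1, and of all but POSTN in mono-culture library 3. COL3A1 in mono-culture library 1 stood at 1.25% of the level in tri-culture library 1, and in library 3 at 1.503%, with no count in mono-culture libraries 2 and 4. COL1A1 was at 1.35% and 0.512% in batches 1 and 3. COL1A1, DCN and LUM had no count in mono-culture libraries 2 and 4, as COL3A1 did, whereas COL5A1 stood at 3.18% of its tri-culture level in batch 4. Of the 40 genes, 7 had no count in mono-culture library 1 and 7 in library 3, against 17 in library 2 and 15 in library 4. Libraries 1 and 3 were also the deepest of the mono-culture group, at 30934258 and 33363972 counts, and the part of depth in this was not tested.

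Of the other matrix glycoproteins, 3 of 5 were tested and 1 was called, against 26.9% of all tested genes. FN1, fibronectin, the cell-adhesive protein of interstitial matrix, had 4.22, 1.06, 18.2 and 6.47 CPM in tri-culture, against 1.61, 1.11, 1.64 and 1.20 CPM in mono-culture. Tri-culture library 2 lay below every mono-culture library and the other 3 lay above them, and FN1 was 5.30-fold higher (log2 fold change 2.41 ± 0.62 SE, edgeR, adjusted p = 0.011). Tri-culture library 3 held 60.7% of the tri-culture sum, and without it the log2 fold change was 1.48 (edgeR, adjusted p = 0.0401). With no filter on low counts this call was lost (edgeR, adjusted p = 0.162).

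FBLN1, fibulin-1, had 1.28, 0.366, 2.94 and 1.09 CPM in tri-culture and no count in mono-culture, at least 46.2-fold higher by the same limit of 3 counts. THBS1, thrombospondin-1, an astrocyte and platelet glycoprotein, had 0.413, 0.57, 1.90 and 1.71 CPM in tri-culture, against 0, 0.111, 0.0298 and 0.0599 CPM in mono-culture. Neither was tested at these counts, although no tri-culture library of either gene overlapped a mono-culture library. TNC, tenascin-C, which radial glia and reactive astrocytes make, had 1.97, 3.22, 12.6 and 10.9 CPM in tri-culture, against 3.76, 5.15, 7.08 and 8.09 CPM in mono-culture (edgeR, adjusted p = 0.757). It was lower than mono-culture in batches 1 and 2 and higher in batches 3 and 4. FBN1, the microfibril protein fibrillin-1, stood at 2.19 ± 1.10 CPM in tri-culture and 1.30 ± 0.663 CPM in mono-culture (SD, n = 4 each, edgeR, adjusted p = 0.231).

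Basement membrane genes split by chain. All 8 were tested, 4 were higher and 4 lower, against 13.9% and 13.0% of all tested genes. The type IV collagen chains, the laminin gamma-1 chain and nidogen were lower, and the laminin alpha-4 and beta-1 chains and the collagens XV and XVIII were higher.

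NID1, nidogen-1, the linker of laminin and type IV collagen (chromosome 1, 235975830 to 236065162), had 6.37, 3.62, 8.63 and 9.06 CPM in tri-culture, against 90.8, 52.6, 41.8 and 55.7 CPM in mono-culture. Every tri-culture library lay below every mono-culture library, and NID1 was 8.73-fold lower (log2 fold change -3.13 ± 0.29 SE, edgeR, adjusted p = 5.85e-06). COL4A1, the alpha-1 chain of type IV collagen, had 7.66, 2.32, 13.4 and 7.51 CPM in tri-culture, against 23.1, 37.5, 24.0 and 31.9 CPM in mono-culture. COL4A2, its partner chain, had 6.33, 2.44, 8.50 and 5.28 CPM in tri-culture, against 17.9, 30.2, 18.7 and 22.2 CPM in mono-culture. The groups did not overlap for either gene. COL4A1 fell by 1.91 ± 0.37 SE on the log2 scale (edgeR, adjusted p = 0.00166) and COL4A2 fell by 1.98 ± 0.30 SE (edgeR, adjusted p = 0.000289). Their ratio on the length-scaled values was 1.72 ± 0.365 in tri-culture and 1.76 ± 0.114 in mono-culture (SD, n = 4 each).

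COL4A1 and COL4A2 lie head to head on chromosome 13 and their RefSeq starts, at 110307157 on the minus strand and 110307284 on the plus strand, are parted by 126 bases. This stretch is shown because the genes on both its sides fell, with the stretch before NID1 for comparison, in RefSeq sequence of GRCh38.p14 with the same motifs in capitals.
COL4A1-COL4A2 (chr13:110307158-110307283, plus strand): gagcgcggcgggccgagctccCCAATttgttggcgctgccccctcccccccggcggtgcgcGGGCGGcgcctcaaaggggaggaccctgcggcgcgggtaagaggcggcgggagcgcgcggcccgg
NID1 (chr1:236065091-236065240, minus strand): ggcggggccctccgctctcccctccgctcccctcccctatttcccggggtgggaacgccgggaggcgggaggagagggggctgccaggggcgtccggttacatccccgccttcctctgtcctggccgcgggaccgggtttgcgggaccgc
The shared stretch held 1 CCAAT and 1 GGGCGG, both on the plus strand, and the NID1 stretch none of the motifs. Of the 35116 promoters, 21.1% held CCAAT and 34.6% GGGCGG within 126 bases of the start.

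LAMC1, the laminin gamma-1 chain shared by most laminins (chromosome 1, 183023460 to 183145592), was, on the length-scaled values within a library, the highest of the 8 genes in every library except mono-culture library 1, where NID1 stood at 56.1 units and LAMC1 at 41.7 units. It had 51.7, 48.1, 63.0 and 51.0 CPM in tri-culture, against 97.1, 87.8, 94.98 and 93.2 CPM in mono-culture, with no overlap (1.74-fold lower, log2 fold change -0.80 ± 0.11 SE, edgeR, adjusted p = 0.000116). LAMB1, the laminin beta-1 chain that pairs with it, went the other way, with 8.66, 1.99, 9.22 and 5.59 CPM in tri-culture, against 2.46, 2.55, 3.42 and 3.00 CPM in mono-culture. Tri-culture library 2 lay below the mono-culture libraries and the others above them (log2 fold change 1.15 ± 0.38 SE, edgeR, adjusted p = 0.0387). This call was lost when any one of the mono-culture libraries, or tri-culture library 1 or 3, was left out (edgeR, adjusted p 0.0517 to 0.115), and without tri-culture library 2 it was 1.45 ± 0.25 SE (edgeR, adjusted p = 0.000942).

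LAMA4, the laminin alpha-4 chain of vessel and muscle basement membranes, had 1.01, 0.936, 2.17 and 1.19 CPM in tri-culture and no count in mono-culture. By the limit of 3 counts it was at least 43.1-fold higher (edgeR, adjusted p = 0.000106), and library 2 was close to library 1. COL15A1, a collagen of the outer face of basement membranes, had 12.1, 13.3, 16.95 and 13.7 CPM in tri-culture, against 4.13, 4.16, 8.04 and 4.49 CPM in mono-culture (2.67-fold higher, log2 fold change 1.41 ± 0.23 SE, edgeR, adjusted p = 0.000471). COL18A1, whose cleaved end is endostatin, had 6.51, 4.72, 5.61 and 6.01 CPM in tri-culture, against 1.44, 2.44, 2.44 and 4.01 CPM in mono-culture (2.24-fold higher, log2 fold change 1.16 ± 0.29 SE, edgeR, adjusted p = 0.00834). For none of the 3 did the groups overlap. Of the COL18A1 exon bases 16.4% lie under SLC19A1 on the opposite strand, and use of strand in the counting is not given in the sources used here.

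**Figure D4:**
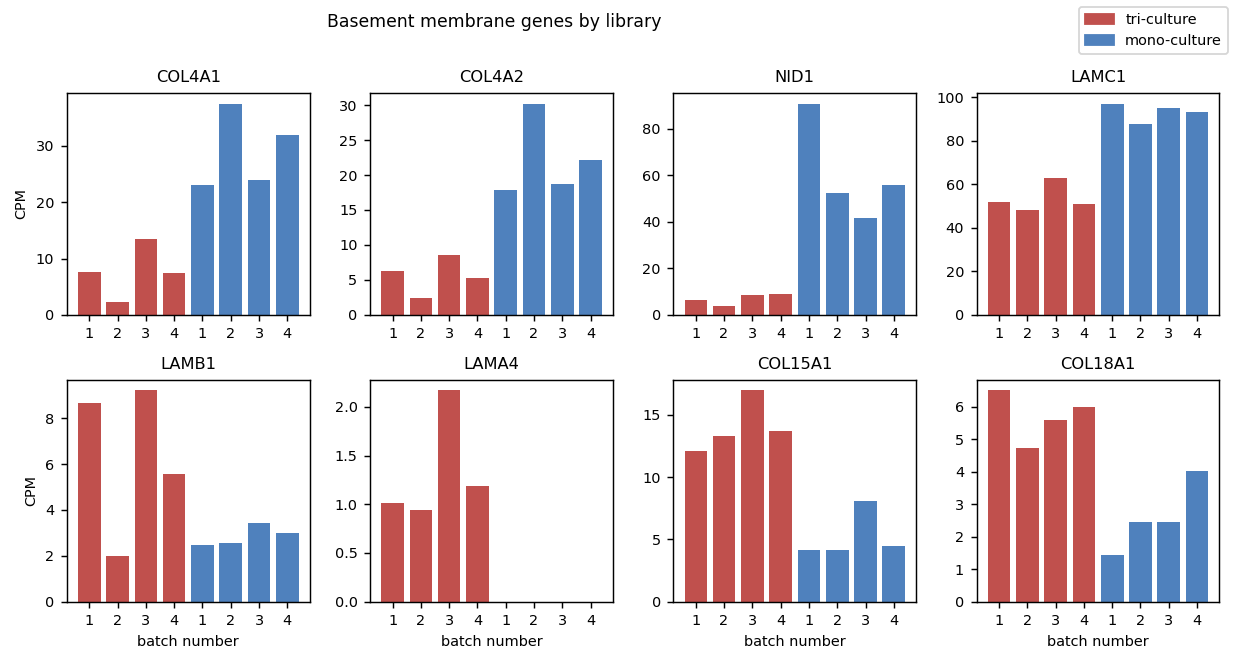
CPM by batch number for the 8 basement membrane genes, tri-culture (red) left of mono-culture (blue) in each panel; each bar is 1 library. COL4A1, COL4A2, NID1 and LAMC1 are lower in every tri-culture library, while LAMA4, COL15A1 and COL18A1 are higher in every tri-culture library and LAMB1 in all but library 2.

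Type VI collagen, a beaded filament that macrophages also make, was lower in 2 of its chains and higher in the third. COL6A1 had 11.0, 15.8, 21.8 and 15.3 CPM in tri-culture, against 24.9, 38.8, 37.6 and 27.8 CPM in mono-culture (2.02-fold lower, log2 fold change -1.01 ± 0.21 SE, edgeR, adjusted p = 0.00242). COL6A2, next to it on chromosome 21, had 6.83, 6.11, 10.7 and 4.82 CPM in tri-culture, against 7.11, 24.0, 13.8 and 14.3 CPM in mono-culture (log2 fold change -1.05 ± 0.33 SE, edgeR, adjusted p = 0.0298). COL6A1 did not overlap, whereas COL6A2 overlapped through mono-culture library 1. COL6A2 missed the threshold without mono-culture library 2 (log2 fold change -0.72, edgeR, adjusted p = 0.12), without mono-culture library 4 (adjusted p = 0.0559), without tri-culture library 1, 2 or 4 (adjusted p = 0.0505, 0.0747 and 0.0836) and with library size as the only scaling (adjusted p = 0.0507).

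COL6A3, the long chain of type VI collagen, had 2.43, 1.10, 7.69 and 1.24 CPM in tri-culture, against 0.513, 1.22, 0.953 and 1.26 CPM in mono-culture. Only libraries 1 and 3 were above the mono-culture range, and the call (log2 fold change 1.69 ± 0.58 SE, edgeR, adjusted p = 0.0485) was lost without tri-culture library 3 (log2 fold change 0.72, edgeR, adjusted p = 0.307), without any one of the mono-culture libraries (adjusted p 0.0774 to 0.127) and in the fit with the batch as a block (1.37, adjusted p = 0.0678). On the length-scaled values COL6A3 stood at 0.0463 ± 0.0341 of COL6A1 in tri-culture and 0.00785 ± 0.00276 of it in mono-culture (SD, n = 4 each).

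COL8A2, a short-chain network collagen, had 15.4, 11.9, 20.8 and 16.7 CPM in tri-culture, against 3.21, 2.49, 6.85 and 2.58 CPM in mono-culture, with no overlap (4.19-fold higher, log2 fold change 2.07 ± 0.31 SE, edgeR, adjusted p = 0.000232). Its partner COL8A1 had 55 counts in tri-culture, 0 of them in library 2, and 4 in mono-culture, and was not tested. COL9A3, a type IX chain that decorates fibrils, had 0.688, 0.611, 1.49 and 1.29 CPM in tri-culture, against 0.137, 0.443, 0.119 and 0.12 CPM in mono-culture (5.15-fold higher, log2 fold change 2.36 ± 0.55 SE, edgeR, adjusted p = 0.00609). Its fellow fibril-associated collagens were too scarce for a test. COL12A1 had 52 counts in tri-culture and 6 in mono-culture, COL14A1 had 70 in tri-culture and 20 in mono-culture, and COL16A1 had 18 in tri-culture and 0 in mono-culture. Each had a higher mean in tri-culture.

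Of 3 genes for surface proteins and a transcription factor of mesenchymal cells, 1, which met the filter through tri-culture alone, was tested and called higher, against 13.9% of all tested genes. THY1, a GPI-anchored protein of fibroblasts and neurons, had 2.75, 0.529, 2.35 and 1.97 CPM in tri-culture, against 0.0342, 0, 0.0595 and 0 CPM in mono-culture, a ratio of 60.4 (95% exact interval 20.3 to 296, counting error only; 3 counts in mono-culture; edgeR, adjusted p = 8.13e-05). PDGFRB, the PDGF receptor of pericytes and fibroblasts, had 1.05, 0.204, 1.58 and 1.09 CPM in tri-culture, against 0.0342, 0, 0.0893 and 0.0599 CPM in mono-culture and was not tested. Groups did not overlap for either gene, and library 2 was the lowest tri-culture library of both. Of the THY1 exon bases 10.7% lie under a gene on the opposite strand. Without that library PDGFRB was called higher (log2 fold change 4.49 ± 0.64 SE, edgeR, adjusted p = 0.000273). TWIST1, a transcription factor of mesenchyme, had 17 counts, all in tri-culture libraries 1 and 3.

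Of the 4 contractile genes all were tested and 1 was called, against 26.9% of all tested genes. TAGLN, transgelin, an actin-binding protein of smooth muscle (chromosome 11, 117199321 to 117204782), had 10.7, 7.73, 9.58 and 10.8 CPM in tri-culture, against 2.119, 2.16, 2.89 and 2.28 CPM in mono-culture (4.08-fold higher, log2 fold change 2.03 ± 0.20 SE, edgeR, adjusted p = 1.01e-05). Library 2 was the lowest tri-culture library, yet lay above all mono-culture libraries. Of the TAGLN exon bases 11.4% lie under PCSK7 on the opposite strand.

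ACTA2, smooth muscle alpha-actin, stood at 7.09 ± 1.32 CPM in tri-culture and 5.93 ± 1.30 CPM in mono-culture (SD, n = 4 each, edgeR, adjusted p = 0.419), and 30.1% of its exon bases lie under FAS and ACTA2-AS1 on the opposite strand. CALD1, caldesmon, stood at 17.3 ± 7.72 CPM in tri-culture and 13.2 ± 3.59 CPM in mono-culture (SD, n = 4 each, edgeR, adjusted p = 0.373). MYL9, a regulatory myosin light chain, had 6.83, 0.57, 3.07 and 1.19 CPM in tri-culture, against 0.376, 2.94, 1.10 and 1.138 CPM in mono-culture (edgeR, adjusted p = 0.282). For all 3 genes the groups overlap, and MYL9 was again lowest in tri-culture library 2. Of 14 pericyte and smooth muscle markers, 3 of them among the 40 genes, 8 were tested. Of these 3 were higher and 2 lower, against 13.9% and 13.0% of all tested genes. The list summed to 76.7 to 123 CPM in tri-culture and 152 to 290.3 CPM in mono-culture. Most of that sum was ANPEP, a peptidase also of myeloid cells, at 66.3 ± 17.3 CPM in tri-culture and 215 ± 59.1 CPM in mono-culture (SD, n = 4 each, edgeR, adjusted p = 7.52e-05). RGS5, a pericyte regulator, stood at 2.92 ± 0.482 CPM in tri-culture and 1.12 ± 0.098 CPM in mono-culture (SD, n = 4 each, edgeR, adjusted p = 0.00179), and DES, the muscle filament desmin, had 5 counts in tri-culture and 0 in mono-culture. ANPEP was thus lower where TAGLN and RGS5 were higher.

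**Figure D5:**
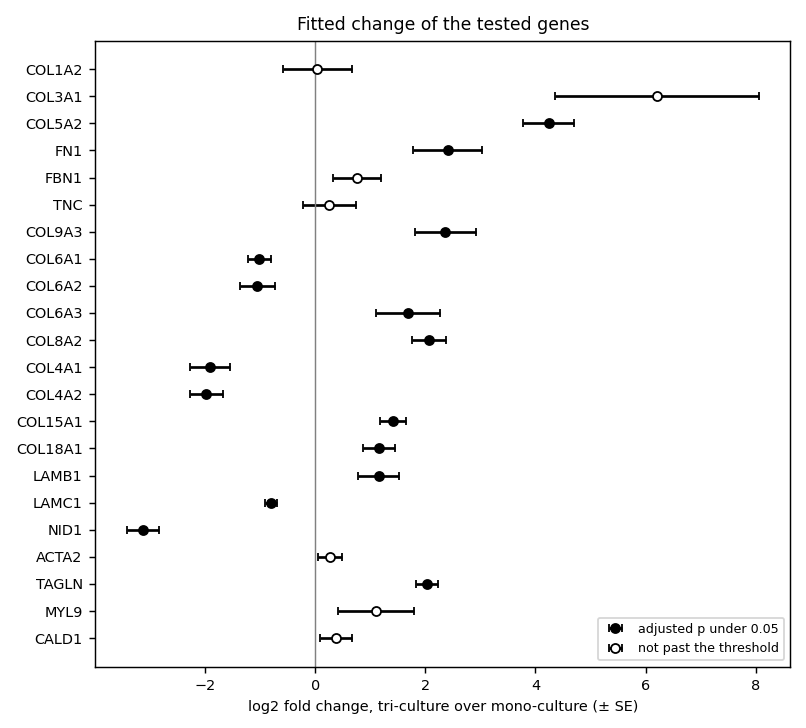
Log2 fold change (tri-culture over mono-culture, ± SE, edgeR) of 22 of the 25 tested genes; filled points have an adjusted p under 0.05. COL11A1, LAMA4 and THY1 are left out because mono-culture held at most 3 counts of each; COL3A1 has the largest change drawn, 6.21, and the widest error, and NID1 the lowest, -3.13.

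Without tri-culture library 2, 32 of the 40 genes were tested, 20 were higher, against 13.0% of all genes tested in that fit, and 5 lower, against 12.4%. The added calls were COL3A1, which had missed the threshold, and COL1A1, COL5A1, DCN, LUM, FBLN1, POSTN and PDGFRB, which had not been tested. In these 7 the tri-culture libraries alone met the filter, which thus picked them for a difference. Tri-culture library 2 was also the lowest of its group for each added gene, so leaving it out could only raise their tri-culture means. COL6A2 was no longer called. The calls of COL4A1, COL4A2, LAMC1, NID1 and COL6A1 as lower and of the 12 genes higher in the full set remained, with NID1 at -2.91 ± 0.26 SE (edgeR, adjusted p = 9.03e-06). With no filter on low counts all 40 genes entered the fit, 20 were called higher, against 6.83% of the genes of that fit, and 6 lower, against 5.73%. With the batch as a block, 12 were higher and 6 lower, against 14.6% and 14.5% of the genes of that fit.

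Other collagen chains were mostly scarce. Of 24 listed, 8 were tested, 5 higher and 1 lower, against 13.9% and 13.0% of all tested genes. Of the 5, COL26A1, COL4A5 and COL4A6 met the filter on low counts through tri-culture alone. The same holds for ADAMTS3, SPARCL1, NCAN, CNN3, TAGLN3 and CDH2 and for the markers GFAP and AQP4, whose tests are therefore no independent evidence of a difference. COL9A2, a type IX chain that assembles with COL9A3, stood at 12.7 ± 3.07 CPM in tri-culture and 4.34 ± 0.628 CPM in mono-culture (SD, n = 4 each, log2 fold change 1.54 ± 0.21 SE, edgeR, adjusted p = 0.000105). COL26A1 had 118 counts in tri-culture and 2 in mono-culture, a ratio of 65.6 (95% exact interval 17.8 to 548, edgeR, adjusted p = 7.48e-05). The basement membrane chain COL4A5 had 110 counts in tri-culture and 2 in mono-culture, a ratio of 61.1 (95% exact interval 16.5 to 511, edgeR, adjusted p = 0.000288). COL4A5 thus was higher where COL4A1 and COL4A2 were lower.

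Genes that fold, modify and trim collagen went in both directions. Of 29 listed, 27 were tested, 5 higher and 8 lower, against 13.9% and 13.0% of all tested genes. Of the 5, P3H4 and LOXL2 reached the count cutoff in 3 mono-culture libraries, fewer than the 4 that the filter needs. PCOLCE2, which was lower, reached it in 1 tri-culture library. PLOD3, a lysyl hydroxylase and glycosyltransferase of collagen, stood at 35.7 ± 7.33 CPM in tri-culture and 80.5 ± 5.18 CPM in mono-culture (SD, n = 4 each, log2 fold change -1.17 ± 0.14 SE, edgeR, adjusted p = 4.6e-05). PCOLCE2, an enhancer of procollagen C-proteinase, fell by 2.99 on the log2 scale, to 0.364 ± 0.0635 CPM in tri-culture, against 2.93 ± 1.49 CPM in mono-culture (SD, n = 4 each, edgeR, adjusted p = 0.000292). ADAMTS3, a procollagen N-proteinase, had 99 counts in tri-culture and none in mono-culture, at least 36.5-fold higher (edgeR, adjusted p = 0.000226).

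Other laminin and basement membrane chains went both ways. With 11 listed and 6 tested, 2 were higher and 2 lower, against 13.9% and 13.0% of all tested genes. HSPG2, perlecan, stood at 2.56 ± 1.137 CPM in tri-culture and 0.736 ± 0.354 CPM in mono-culture (SD, n = 4 each, edgeR, adjusted p = 0.00783). HSPG2 reached the count cutoff in 3 mono-culture libraries, fewer than the 4 that the filter needs. It thus passed only with the tri-culture libraries, where it is higher, and its test is no independent evidence of a difference. The laminin alpha-5 chain LAMA5 stood at 4.80 ± 2.74 CPM in tri-culture and 1.62 ± 0.292 CPM in mono-culture (SD, n = 4 each, edgeR, adjusted p = 0.00986). LAMB3, a beta chain of epithelial laminin, fell by 1.99 on the log2 scale to 3.17 ± 1.52 CPM in tri-culture, against 12.6 ± 3.09 CPM in mono-culture (SD, n = 4 each, edgeR, adjusted p = 0.000236).

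Among other matrix glycoproteins and proteoglycans 11 were higher and 3 lower of 22 tested and 35 listed. The shares of all tested genes were 13.9% and 13.0%. Of the 11, 6 met the filter through tri-culture alone, with 0 mono-culture libraries at the count cutoff. MFAP4, MATN2 and FBN2, also higher, reached the cutoff in 1 mono-culture library and would not have passed on mono-culture. The filter thus helped to pick all of these for a difference. SPON2, called lower, reached the cutoff in 4 mono-culture and 0 tri-culture libraries. ECM1 had 1.24, 1.06, 2.49 and 1.71 CPM in tri-culture, against 79.9, 103.7, 61.9 and 117 CPM in mono-culture (log2 fold change -5.80 ± 0.28 SE, edgeR, adjusted p = 2.82e-08). SPARCL1, an astrocyte glycoprotein, stood at 22.1 ± 10.5 CPM in tri-culture and 0.203 ± 0.145 CPM in mono-culture (SD, n = 4 each, edgeR, adjusted p = 4.83e-07). NCAN, neurocan, a proteoglycan of brain matrix, had 1084 counts in tri-culture and 3 in mono-culture (edgeR, adjusted p = 1.3e-06). Which cells made the RNA of SPARCL1 and NCAN was not tested.

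Of 31 cytoskeletal and smooth muscle genes, 26 were tested, 3 higher and 4 lower, against 13.9% and 13.0% of all tested genes. VCL, vinculin of focal adhesions, stood at 19.0 ± 1.28 CPM in tri-culture and 80.5 ± 13.5 CPM in mono-culture (SD, n = 4 each, log2 fold change -2.08 ± 0.13 SE, edgeR, adjusted p = 2.48e-07). CNN3, calponin-3, had 11.9, 17.1, 20.2 and 13.0 CPM in tri-culture and 3 counts in all in mono-culture (edgeR, adjusted p = 8.1e-08). TAGLN3, a neuronal relative of TAGLN, had 439 counts in tri-culture and none in mono-culture, at least 164-fold higher (edgeR, adjusted p = 1.02e-05).

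Of 15 mesenchymal regulators, 7 were tested, 2 higher and 3 lower, against 13.9% and 13.0% of all tested genes. CDH2, N-cadherin, stood at 6.35 ± 2.96 CPM in tri-culture and 0.14 ± 0.0665 CPM in mono-culture (SD, n = 4 each, edgeR, adjusted p = 2.93e-06). The transcription factor ZEB1 stood at 12.6 ± 1.93 CPM in tri-culture and 2.46 ± 0.646 CPM in mono-culture (SD, n = 4 each, edgeR, adjusted p = 5.91e-06). VIM, vimentin, stood at 567 ± 35.3 CPM in tri-culture and 946 ± 136 CPM in mono-culture (SD, n = 4 each, log2 fold change -0.74 ± 0.13 SE, edgeR, adjusted p = 0.00102). Neural cells also express CDH2 and VIM.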

How the data were processed

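Total RNA was sequenced in bulk. The authors aligned reads with HISAT2 (2.1.0) and counted them per gene with featureCounts (2.12.3), build GRCh38, per the submitters' processing notes. The deposited counts were used as they stand. Strand use is not given in the sources used here. Another deposited table holds the authors' length-scaled signal values, whose totals differ between libraries, and served for ratios between genes within a library. Symbols came from the reference tables and coordinates from GENCODE 29. Genes passing filterByExpr (minimum count 10, total 15) were tested across all libraries in edgeR 4.0.16 (R 4.3.3) by its robust quasi-likelihood test, with TMM factors and the group as the only term; SE is the absolute log2 fold change over the square root of F. Where a group had 0 counts, a floor of 3 counts over the group took its place (0.0342 CPM for tri-culture, 0.0307 CPM for mono-culture). With 1 to 3 counts, the ratio is given with an exact interval. Both cover counting error only. Scripts were tested on simulated data.

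The 40 genes and the companion lists were chosen with earlier results of these data known. Values in every library were given for genes called, for genes whose call changes with the block or without 1 library, and for the 4 most abundant, and from each companion list the 3 tested genes with the smallest adjusted p were named. Both groups carry the batch numbers 1 to 4 in the labels, which pairs the libraries. Within batches 1 to 4 the correlation of the paired libraries' distances from their group means was 0.182, 0.110, 0.224 and 0.0938. With 1 library of each group in a batch, batches could not be tested one by one. Replicates differed beyond sampling noise (chi-square per degree of freedom 9.21 to 65.1), and the labels call the batches independent. The alternatives were DESeq2 1.42.0 (test and size factors), library size only, other filters, the block and each library left out.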

Additional observations from a re-analysis of the deposited data

Results flagged for a closer look

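Of 72 groups of 4 libraries examined, 4 held a library far from the other 3, and chance flags about 1 in 20 groups. Mono-culture library 3 was the highest of its group for COL8A2 at 6.85 CPM, with the next at 3.21 CPM, and for COL15A1 at 8.04 CPM, with the next at 4.49 CPM. Mono-culture library 2 was the highest for COL9A3 at 0.443 CPM, with the next at 0.137 CPM. Mono-culture library 1 was the only one of its group with a count of POSTN, at 0.171 CPM. In each case the tri-culture group was higher than the flagged library, except for POSTN in tri-culture library 2, which had no count.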

How the results depend on the processing

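With each library left out in turn, 10 to 20 of the 40 genes were called higher and 5 to 6 lower, 2014 to 2311 genes of all were higher and 1786 to 2135 lower, and 23 to 30 of the companion genes were higher and 16 to 19 lower. With no filter on low counts 20 of the 40 were higher, and the stricter filter (at least 1 CPM in at least 4 libraries) left 9 of the 40 (22 tested) and 18 companion genes higher, where fewer genes were tested (13972), and COL6A3 was lost (adjusted p = 0.0505). Library size as the only scaling shifted the median log2 fold change over all genes to 0.12, against 0.02 with TMM, and the share of calls that were higher to 63.0%, against 51.7%; 13 of the 40 genes were then higher and 5 lower. With the batch as a block 12 and 6 of the 40 were called, as without it; it added COL3A1 and removed COL6A3 and changed no other call among them. With no count of COL3A1 in library 2 of either group, batch 2 carries no information on its difference in that fit. COL3A1 also passed with DESeq2 (adjusted p = 0.0447), library size only (0.0430) and the stricter filter (0.0409), and missed with DESeq2 size factors (0.05001), with no filter (0.118) and without any 1 library other than tri-culture library 2 (0.0887 to 0.113); the cause was not tested. The COL1A2 log2 fold change reversed to -0.029 with the block, -0.16 without mono-culture library 2, -0.33 without mono-culture library 3, -0.16 without tri-culture library 1 and -0.42 without tri-culture library 3, and with 1 library left out it ran from -0.42 to 0.47. That of TNC reversed to -0.025 with the block, -0.16 without tri-culture library 3 and -0.024 without tri-culture library 4, and ran from -0.16 to 0.56 with 1 library left out. PTPRC, which was not called, ran from -0.021 to 0.083 on that scale with 1 library left out. The 18 named companion genes kept call and direction in every alternative that tested them. COL4A1, COL4A2, COL5A2, COL6A1, COL8A2, COL11A1, COL15A1, COL18A1, LAMC1, NID1 and TAGLN kept their call and direction in all 14 alternatives. Genes with few counts in fewer than 4 libraries, such as COL2A1 and TWIST1, did not pass the filter, and depth limits what their values show.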
